A study of Schizosaccharomyces pombe with 4 samples.

Results

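The genes described here encode the histones of fission yeast (Schizosaccharomyces pombe). They are the 9 canonical core histone genes hta1, hta2, htb1, hht1, hht2, hht3, hhf1, hhf2 and hhf3, together with pht1, which encodes the H2A variant H2A.Z. They were chosen by systematic identifier, without use of a measured value, and all 10 were found among the 4888 genes listed in the processed table. The study located the RNA helicase Upf1 on chromosomes by chromatin immunoprecipitation (ChIP) of Upf1 carrying an HA epitope tag, followed by hybridisation to genomic tiling arrays. The table rests on 4 arrays, which are 1 immunoprecipitation (IP) array of an S-phase culture, 1 IP array of an asynchronous culture and 2 arrays of input DNA that serve both. Per the labels, the S-phase culture carried the cdc25-22 mutation, was arrested in G2 by 3.5 h at 37 °C, and then spent 60 min at 25 °C before fixation. No treatment is recorded for the asynchronous culture, and whether it carried cdc25-22 is not said. In both cultures Upf1 was tagged at its own locus, and every ratio averages over all cells of a culture. Both inputs are labelled as untreated, so S-phase DNA content has no input of its own here. Beside them stand a ChIP ratio of RNA polymerase II carrying the Ser5 phosphate mark (Pol II) and an RNA level, both of them the authors' means over published datasets of other cultures.

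Core histones H2A, H2B, H3 and H4 form the protein spool on which DNA is wound, and a cell that copies its DNA has to make a matching amount of them. Canonical histone genes are therefore known as genes whose mRNA accumulates in S phase. In fission yeast the H3 and H4 genes lie in divergent pairs, hta1 and htb1 form another such pair, and the GATA-type factor Ams2 is known to activate them. H2A.Z is exchanged into nucleosomes outside replication, by the Swr1 remodelling complex.

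The promoters of 8 histone genes were searched, those of the 3 H3-H4 pairs, hta2 and pht1. In the RefSeq genome (assembly ASM294v3), windows from 250 bp before to 50 bp after each annotated gene start were searched on both strands for AACCCT, an element known from fission yeast histone promoters. The 7 canonical genes among them held it, pht1 did not, and 9.67% of 5110 protein-coding promoters did. In each of the 7 the element stood as a head-to-tail repeat of 12 bases, which contains the single element by construction and was found in 18 of the 5110 promoters (0.352%). Each of the 3 pairs shares a single copy of this repeat, so the 7 genes rest on 4 sites. These are shown with the repeat in capitals, on the strand that spells it, because the same 12 bases recur at these 4 loci.
hta2, chrI:4053362-4053391, minus strand: atccatcaaAACCCTAACCCTgtatattgc
hht1-hhf1, chrI:4699643-4699672, plus strand: ctgcatcaaAACCCTAACCCTgcttttgat
hht2-hhf2, chrII:1365051-1365080, minus strand: gtcaatcacAACCCTAACCCTgatttaaga
hht3-hhf3, chrII:3529618-3529647, plus strand: tttgatcacAACCCTAACCCTttaattaaa
A match to the single GATA-type word GATAA was found in 4 of the 8 histone promoters and in 59.5% of all promoters. The array data give 1 value per gene and do not resolve these sites.

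**Figure D1:**
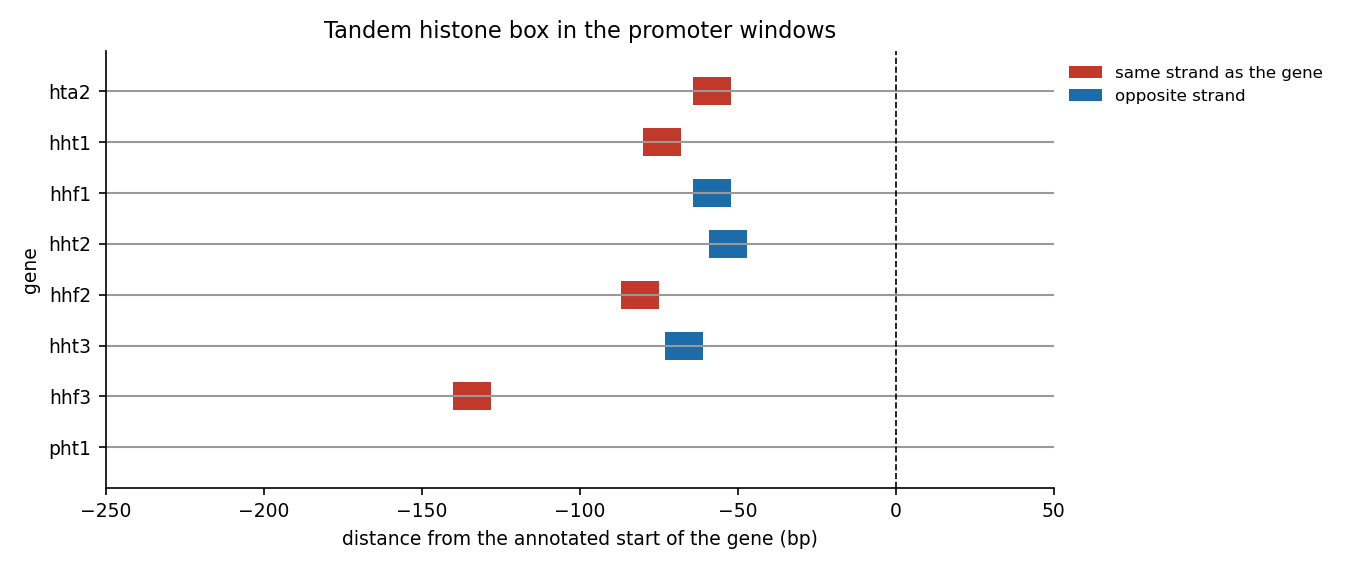
Position of the tandem histone box (coloured blocks) in the promoter window of 8 histone genes; the horizontal axis is the distance from the annotated gene start in bp (dashed line at the start), red marks the strand of the gene and blue the opposite strand. The first base of the repeat lies at -140 (hhf3) to -59 (hht2) in the 7 canonical genes, and no match is in the window of pht1.

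Upf1 association was next described gene by gene. The columns of deposited ratios were not on a common scale, since the median gene had 0.195 in S phase and 0.774 in the asynchronous culture. Levels are therefore given as deposited and as a log2 difference from the median gene of the column. The gene hta1 (SPCC622.08c, chrIII:1411144-1412181, minus strand), for histone H2A alpha, had a deposited ratio of 0.539 in the S-phase culture and 1.17 in the asynchronous culture. Relative to the median gene these are log2 levels of 1.47 in S phase and 0.59 in the asynchronous culture. Its S-phase level was the highest of the 10 genes and the 25th of all 4888. The divergently transcribed partner htb1 (SPCC622.09, chrIII:1412359-1413677), the only H2B gene, had ratios of 0.453 in S phase and 1.46 in the asynchronous culture, which are log2 levels of 1.22 and 0.91. It was the highest histone gene of the asynchronous culture, at place 43 of all genes. The H2A beta gene hta2 (SPAC19G12.06c, chrI:4052446-4053318, minus strand), which stands alone, had ratios of 0.437 in S phase and 1.11 in the asynchronous culture, with log2 levels of 1.16 and 0.52. All 3 genes of the H2A and H2B group thus lay higher above the median gene in S phase, and htb1 least so.

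The H3 genes encode identical proteins from 3 places. The ratios of hht1 (SPAC1834.04, chrI:4699732-4700560) were 0.342 in S phase and 0.929 in the asynchronous culture, with log2 levels of 0.81 and 0.26. Those of hht2 (SPBC8D2.04, chrII:1365119-1365818) were 0.353 in S phase and 1.43 in the asynchronous culture, and its log2 levels of 0.86 and 0.89 were nearly equal. Those of hht3 (SPBC1105.11c, chrII:3528800-3529565, minus strand) were 0.425 in S phase and 1.33 in the asynchronous culture, with log2 levels of 1.12 and 0.78. The H3 copies therefore spanned 0.31 in S phase and 0.62 in the asynchronous culture on the log2 scale, in spite of their identical products. The H4 genes were closer to each other. The ratios of hhf1 (SPAC1834.03c, chrI:4698773-4699599, minus strand) were 0.416 in S phase and 0.912 in the asynchronous culture, with log2 levels of 1.10 and 0.24, the lowest asynchronous level of the 10 genes. Those of hhf2 (SPBC8D2.03c, chrII:1364189-1364984, minus strand) were 0.451 in S phase and 1.12 in the asynchronous culture, with log2 levels of 1.21 and 0.54. Those of hhf3 (SPBC1105.12, chrII:3529767-3530388) were 0.400 in S phase and 1.05 in the asynchronous culture, with log2 levels of 1.04 and 0.44. All 3 H4 genes were thus past 1.5-fold over the median gene in S phase and short of it in the asynchronous culture.

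The variant gene pht1 (SPBC11B10.10c, chrII:1502203-1503444, minus strand) had the lowest S-phase level of the 10 genes. Its deposited ratios were 0.262 in the S-phase culture and 0.979 in the asynchronous culture, which gave log2 levels of 0.43 and 0.34. In S phase all 9 canonical genes were above it, and it lay 0.70 below their median. In the asynchronous culture 7 of 9 were above it, and it lay 0.20 below their median. Against hta1 and hta2 alone, the genes of its canonical counterpart, the differences were -0.89 in S phase and -0.22 in the asynchronous culture.

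With a single IP array for each culture there is no replicate error, so no test was made and no p-values are given. As a measure of array spread served the standard deviation of the log2 difference between the cultures over all genes, brought to the scale of 1 array, which was 0.24 and which holds true differences too. In the order of S-phase levels, hht1 exceeded pht1 by 0.39, and hta1 exceeded the next gene, htb1, by 0.248, against a spread of 0.245. The gap of hta1 to htb1 does not set hta1 apart. It barely passed the spread, which is that of a single gene, while a gap between genes holds the error of both. The gap of hht1 to pht1 holds the error of both genes too. Without the trend with GC content, hht1 was at 0.55 and pht1 at 0.49. All other neighbours in that order differed by less than the spread, as did all neighbours in the asynchronous order.

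**Figure D2:**
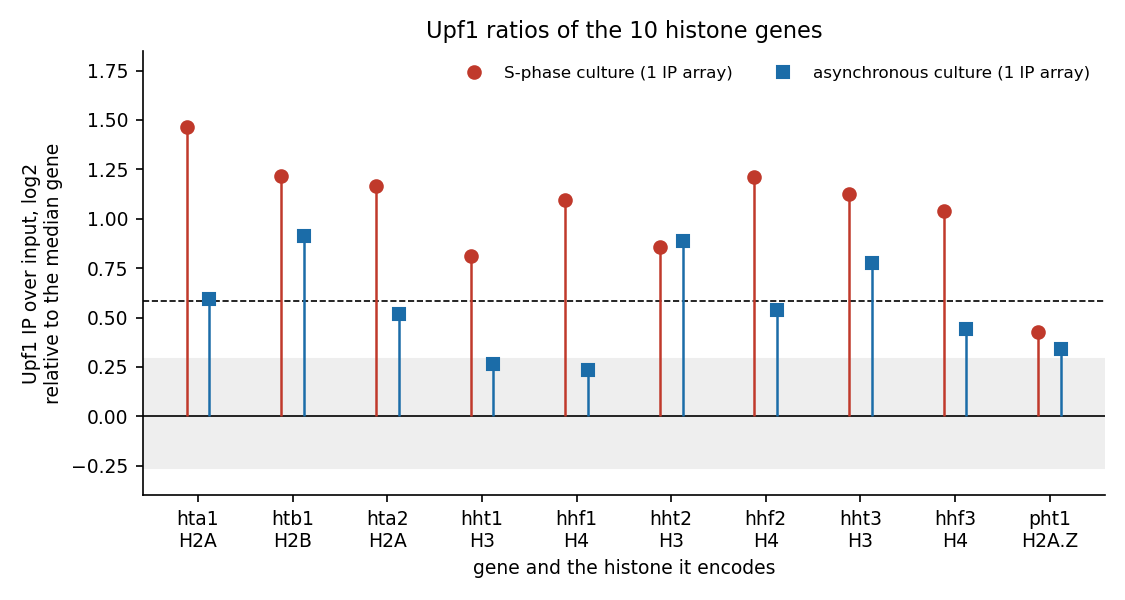
Upf1 IP over input (log2, relative to the median gene of each column) for the 10 histone genes in the S-phase culture (red circles) and the asynchronous culture (blue squares), with 1 array each and no error bars; the dashed line marks 1.5-fold above the median gene and the grey band holds the middle 50% of all genes in S phase. The S-phase points lie between 0.43 and 1.47 and exceed the asynchronous points at all genes but hht2.

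A gene was called enriched where it exceeded the median gene by 1.5-fold or more. In S phase 9 of the 10 histone genes were called, all but pht1, against 11.2% of all genes. With centring on the 25% of genes of lowest Pol II ratio, pht1 (0.68) was called as well, with 22.7% of all genes called. The call of hht1 was lost without the trend with GC content (0.55, with 8.33% of all genes called) and with S-phase ratios scaled to the asynchronous spread (0.58, with 5.03% called). In the asynchronous culture hta1, htb1, hht2 and hht3 were called, that is 4 of 10, against 5.14% of all genes. The same 4 were called in both cultures, against 3.36% of all genes. Over the 10 genes the median log2 level was 1.11 in S phase and 0.53 in the asynchronous culture. At the median, the histone genes were above 98.1% of genes in S phase and above 93.5% in the asynchronous culture. Without the GC trend 2 genes were called in the asynchronous culture, against 3.36% of all genes, as hta1 (0.53) and hht3 (0.49) no longer passed.

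The cultures were then compared directly. Their log2 ratio (S phase over asynchronous, centred on the median gene) does not depend on the inputs, which are shared and cancel. It was above 0 at 9 of the 10 genes, with a median of 0.56 and a range from -0.037 to 0.87. Higher in S phase by 1.5-fold or more were hta1 (1.82-fold), hhf1 (1.80-fold), hhf2 (1.59-fold), hta2 (1.56-fold) and hhf3 (0.59 on the log2 scale), which is 5 of 10 against 3.78% of all genes. The value of hhf3 was just past the threshold and that of hht1 just short of it, at 1.46-fold. The remaining ratios were 1.27-fold at hht3, 1.23-fold at htb1, 1.06-fold at pht1 and 0.975-fold at hht2. No histone gene was 1.5-fold lower in S phase, against 4.03% of all genes. All 5 genes past 1.5-fold are canonical, and they include each of the 3 H4 genes and both H2A genes, but no H3 gene and not htb1. This split by histone hangs on hhf3 and hht1, which differed by only 0.045. The call of hhf3 was lost without the GC trend (0.557), which left 4 genes called. It was also lost, again leaving 4, once genes with little RNA were dropped (0.571). With the S-phase spread scaled, hht1 (0.310) exceeded hta2 (0.307) and hhf3 (0.291), but not hta1, hhf1 or hhf2.

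The log2 ratios of all genes were more spread in S phase (standard deviation 0.48) than in the asynchronous culture (0.34). When they were scaled to the asynchronous spread, the median difference of the histone genes was 0.30, it was above 0 at 7 of 10 genes, and none was called, against 1.82% of all genes. Histone genes are also short, with htb1 the longest at 1319 bp and a median of 828 bp, against 1803.5 bp over all genes. In the range of length of the 10 genes the standard deviation of the difference was 0.40 over 1186 genes, against 0.34 over all genes with a length, and 4.81% of genes were called higher in S phase. The arrest and release, the array, any difference of strain and the cell cycle stage cannot be told apart in this design. The titles of the IP arrays also end in digits that read as dates of different years.

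Partners of a divergent pair share their promoter region, so they were set side by side. The gaps between annotated starts were short, from 132 bp at hht1-hhf1 and 134 bp at hht2-hhf2 to 177 bp at hta1-htb1 and 201 bp at hht3-hhf3, against a median of 824 bp over 1179 adjacent divergent pairs of listed protein-coding genes. In each of the 3 H3-H4 pairs the H4 gene had the larger difference between cultures. The H3 gene differed from its H4 partner by -0.70 at hht2-hhf2, by -0.31 at hht1-hhf1 and by -0.25 at hht3-hhf3. At the first of these, 90.2% of all divergent pairs differed by less. At hht1-hhf1 and hht3-hhf3 59.1% and 48.3% did, so those differences are ordinary in size between divergent partners. Each such value also holds the error of both genes in both cultures. The difference of hta1 exceeded that of htb1 by 0.57, with 83.2% of divergent pairs differing by less. These 4 differences kept their signs without the GC trend, without the length trend and with the S-phase spread scaled. In S phase alone 12.9% (hht3-hhf3) to 49.4% (hht2-hhf2) of divergent pairs differed by less than the histone partners. The largest difference, -0.36 at hht2-hhf2, was near the median of 0.36 over all divergent pairs.

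Whether Upf1 at these genes goes with transcription was described against the Ser5 Pol II column. Pol II exceeded the median gene by 1.5-fold or more at 7 of 10 histone genes, against 16.0% of all genes. It was highest at hht2 and hhf2, with log2 levels of 1.83 and 1.67. It was 1.44 at htb1, 1.03 at hta1, 0.95 at hhf3, 0.77 at hht3 and 0.65 at hhf1. The lowest levels were 0.26 at hht1, 0.25 at pht1 and 0.060 at hta2, so hta2 was close to the median gene for Pol II although its S-phase Upf1 level was at place 68 of all genes. The column comes from other cultures and holds no S-phase value. Among the 781 genes past 1.5-fold for Pol II, 9.73% were called higher in S phase, and of the 7 histone genes among them 4 were.

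All genes were also sorted into 10 classes of equal size by Pol II ratio, and each histone gene was set against the median of its class. In S phase all 10 lay above it, by 0.17 at hht2 to 1.19 at hta2 (median 0.65). In the asynchronous culture all 10 lay above it too, by 0.011 at hhf3 to 0.57 at hht3, with a median of 0.26. The H4 genes were within 0.11 of their class in the asynchronous culture and exceeded it by 0.35 to 0.76 in S phase. The difference between cultures was above that of the class at 9 of 10 genes, with hht2 below it (-0.25) and a median of 0.41. Set against its class, pht1 was not the lowest. It was at 0.37 in S phase, above hhf3 (0.35) and hht2 (0.17) and below the other canonical genes, and at 0.30 in the asynchronous culture.

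**Figure D3:**
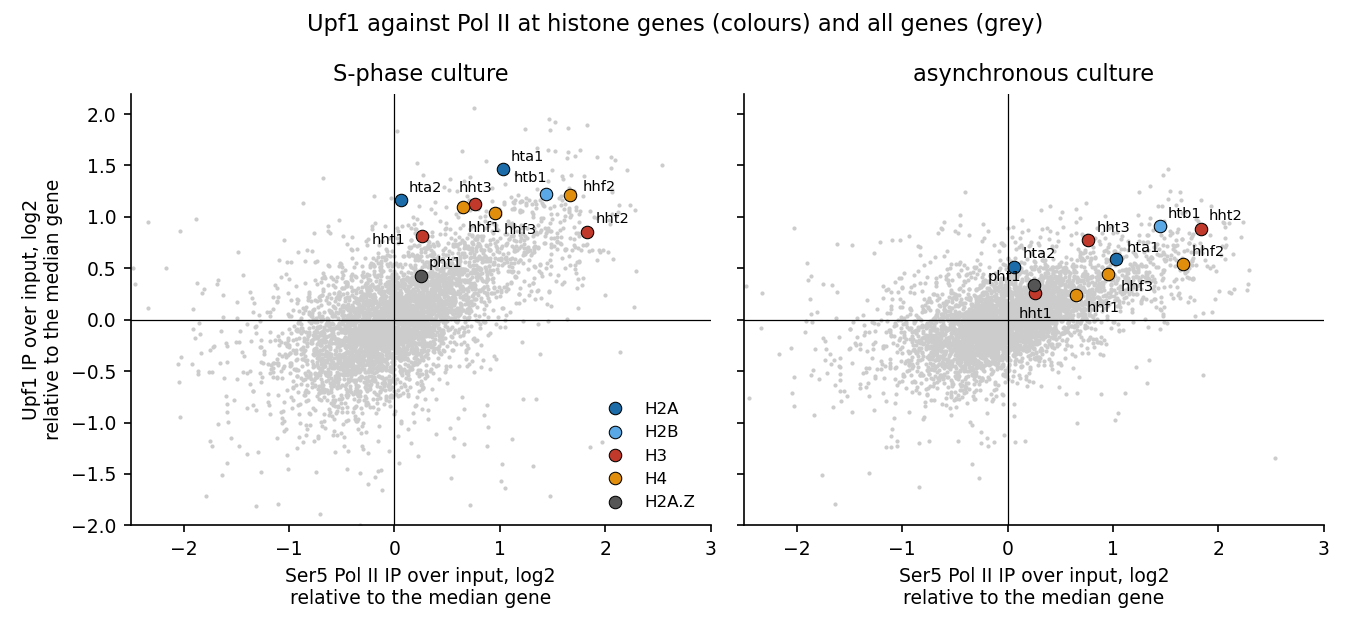
Upf1 IP over input against Ser5 Pol II IP over input, both log2 relative to the median gene, in the S-phase culture (left) and the asynchronous culture (right); histone genes are coloured by the histone they encode and grey points are all other genes, of which 12 and 9 lie outside the axes. In S phase hta2 lies at 1.16 on the Upf1 axis and 0.060 on the Pol II axis, and pht1 is the lowest histone gene.

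RNA levels were higher at the H3 than at the H4 genes. They are deposited as a natural log of FPKM + 1, a measure per length, and are printed here as FPKM. The H3 genes hht1, hht2 and hht3 had 513, 505 and 659 FPKM, and the H4 genes hhf1, hhf2 and hhf3 had 258, 212 and 186 FPKM. How often gene sets of this size lie apart in this way was not counted. Within pairs the H3 level was 1.99 times the H4 level at hht1-hhf1, 2.39 times at hht2-hhf2 and 3.55 times at hht3-hhf3. Of all divergent pairs, 38.3% to 64.4% differed less in RNA level than these histone pairs, so differences of this size are ordinary between divergent partners. The H2B gene htb1 had 733 FPKM, the highest level of the 10. The H2A genes hta1 and hta2 had 342 and 238 FPKM. The level of pht1 was 50.9 FPKM, below every canonical gene and close to the median gene at 41.0 FPKM. Of the canonical genes hhf3 was lowest, and its RNA level still exceeded that of 88.9% of genes. Thus hht1 and hht2 had nearly equal RNA levels while their log2 Pol II levels differed by -1.57 (hht1 minus hht2).

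**Figure D4:**
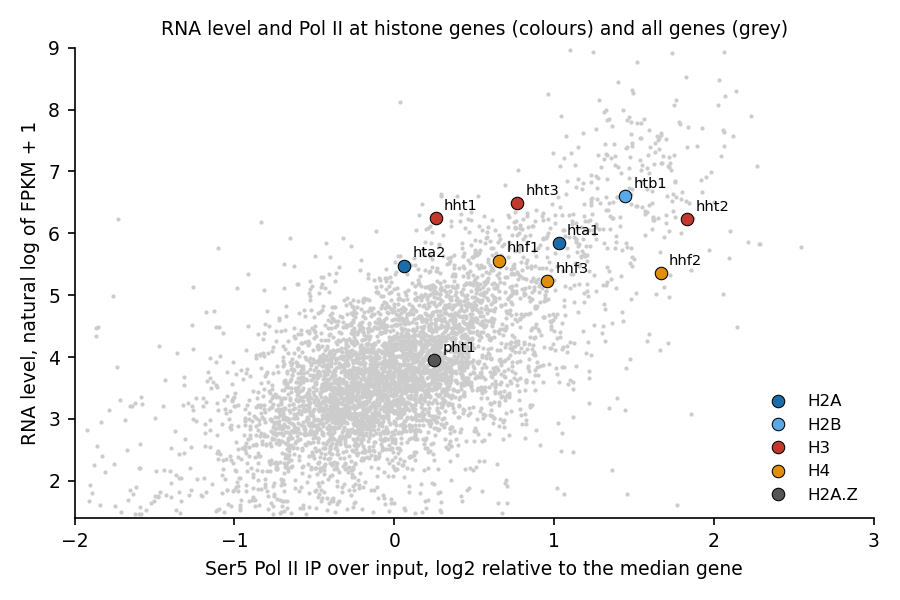
RNA level (natural log of FPKM + 1, authors' mean) against Ser5 Pol II IP over input (log2 relative to the median gene, authors' mean) for histone genes (coloured by histone) and all other genes (grey, 23 of them outside the axes). The 3 H3 genes lie between 6.23 and 6.49 on the RNA axis, the 3 H4 genes between 5.23 and 5.56 and pht1 at 3.95.

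Copies of a histone gene resemble each other, and array probes of 25 bases may hybridise to more than one. The share of 25-base words of each annotated gene that recurs elsewhere in the genome was therefore counted. It was 12.2% at hht1, 11.2% at hhf3, 8.09% at hht3, 7.51% at hhf2, 6.21% at hht2, 4.86% at hhf1, 4.12% at hta2 and 3.45% at hta1, and no such word was found at htb1 and pht1. Every recurring word lay in another of the 10 genes and 0 lay outside them. Coding sequences were 88.3% to 92.7% identical among H3 genes, 91.3% to 93.3% among H4 genes and 86.5% between hta1 and hta2, whose proteins differ at 3 aligned positions, end gaps included. The coding sequence of pht1 was 55.1% identical to that of hta1 and 58.2% to that of hta2. The longest runs common to all copies are shown for the H3 and the H4 genes, as stretches where all copies agree. The run common to hta1 and hta2 has 41 bases and is not shown. The H3 run is 23 bases long, shorter than a probe, and begins at coding base 109, at chrI:4699937-4699959 in hht1, chrII:1365266-1365288 in hht2 and chrII:3529399-3529421 in hht3 (minus strand). The H4 run has 46 bases, begins at coding base 268 and lies at chrI:4699084-4699129 in hhf1, chrII:1364511-1364556 in hhf2 (minus strand both) and chrII:3530034-3530079 in hhf3, and its first 25 bases are shown.
hht1, hht2 and hht3: aagaagcctcatcgttatcgtcc
hhf1, hhf2 and hhf3: tctttgaagcgtcaaggccgtacca
Which probes were assigned to each gene, and how far imperfect matches add to a signal, was not tested. Of the words of hht1, 40 were shared with hht2 and 58 with hht3.

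Overlapping genes were also counted. The annotation places a long non-coding RNA, not listed in the table, over the whole of hta1, hhf2 and hhf3. Others cover 58.1% of pht1, 49.9% of hht1, 27.7% of hta2 and 11.4% of htb1, and no such RNA overlaps hhf1, hht2 or hht3. The share of all genes with such an overlap was not counted, so it is not known whether this is particular to histone genes. Of the protein-coding genes, rav1 overlaps hht3 by 46 bp and sec5 overlaps the 3′ part of htb1 by 258 bp. In S phase sec5 had a level of 0.27, and in the asynchronous culture 0.37.

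The 2 listed genes on each side of each locus were described to see whether regions moved as a whole. Between the cultures these 24 neighbours had a median log2 difference of -0.045, with 11 of 24 above 0, against 0.56 at the histone genes. Of the neighbours, 1 was higher in S phase by 1.5-fold or more, against 3.78% of all genes, namely SPCC622.07 beside hta1 (0.77). Its levels were below the median gene in both cultures, at -0.47 in S phase and -1.24 in the asynchronous culture. The gene beyond it, SPCC622.06c, was the only neighbour at least 1.5-fold lower in S phase (-0.67), against 4.03% of all genes. Beside hta2, mce1 had 0.47 and rsd1 0.058. Beside hht2-hhf2, vps68 had -0.51 and sfi1 -0.30. Next to pht1, cdc2, which encodes the main cyclin-dependent kinase of fission yeast, had -0.19. The S-phase level passed the 1.5-fold threshold at 1 of the 24 (scs7, 0.60), against 11.2% of all genes, and its median was 0.041. The neighbours thus lay around the median gene in S phase, where the canonical histone genes lay between 0.81 and 1.47.

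**Figure D5:**
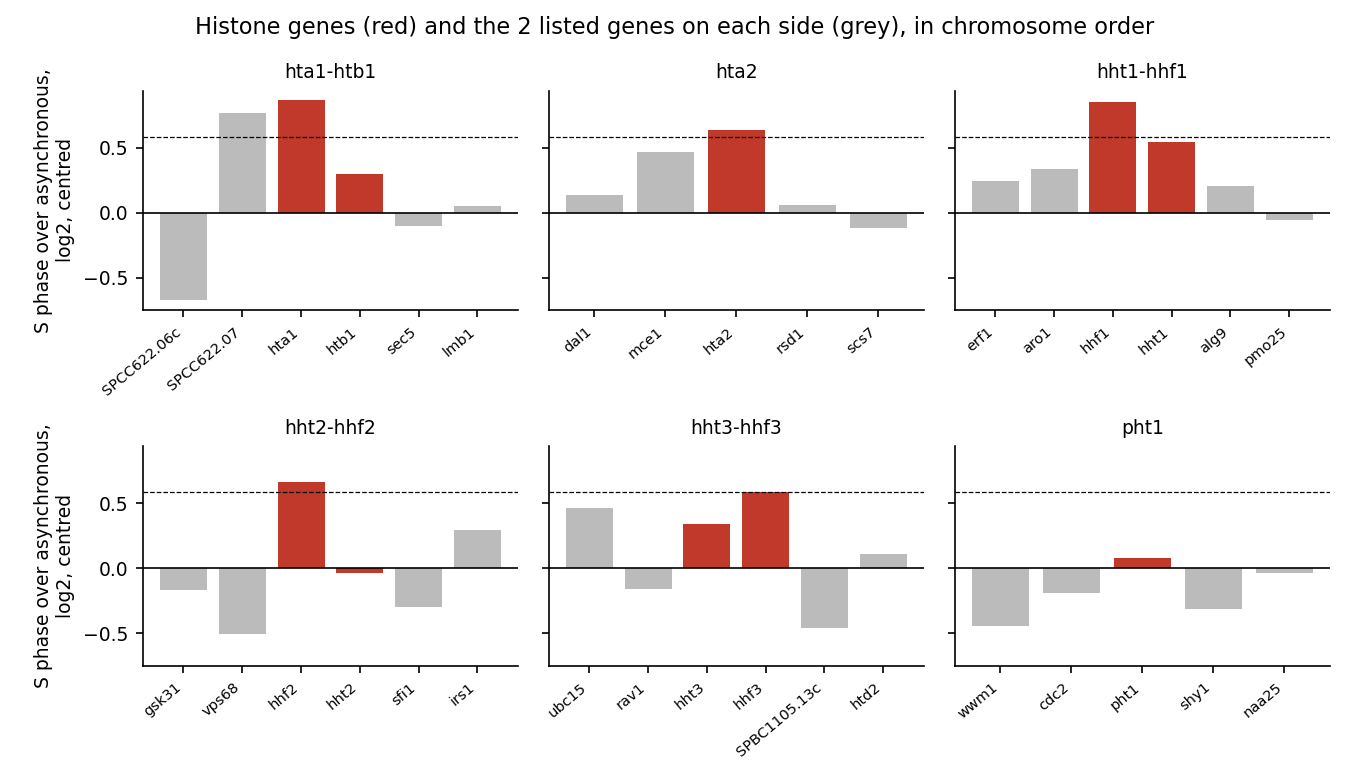
Log2 ratio of S phase over asynchronous, centred on the median gene, for the histone genes of each locus (red bars) and the 2 listed genes on each side (grey bars), in chromosome order; the dashed line marks 1.5-fold. The red bars reach 0.87 at hta1 and 0.85 at hhf1, while the grey bars range from -0.67 to 0.77.

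Genes that supply, carry or deposit histones formed the last list, with 25 genes listed. Their median level was -0.10 in S phase and -0.092 in the asynchronous culture. In S phase 2 of the 25, ams2 and nap1, exceeded the median gene by 1.5-fold or more, against 11.2% of all genes. In the asynchronous culture 0 of the 25 did, against 5.14%. The difference between cultures had a median of -0.058, and 0 of the 25 were called higher and 1 lower in S phase, against 3.78% and 4.03% of all genes. The activator gene ams2 had deposited ratios of 0.338 in S phase and 0.905 in the asynchronous culture, with log2 levels of 0.80 and 0.22, a difference of 0.56 and a Pol II level of -0.052. The nucleosome assembly gene nap1 had 0.60 in S phase and 0.47 in the asynchronous culture, with a Pol II level of 0.95. Lower in S phase was chz1, which encodes a chaperone of H2A.Z-H2B in budding yeast, with deposited ratios of 0.0976 in S phase and 0.623 in the asynchronous culture and a log2 difference of -0.69. The gene scm3, whose product loads the centromeric H3 variant, had -0.59 in S phase and -0.39 in the asynchronous culture. The gene of that variant itself, cnp1, had -0.21 in S phase and -0.23 in the asynchronous culture. Low for Pol II were hat1 (-0.60), sim3 (-0.90), swc5 (-0.80) and chz1 (-0.70).

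Outside the 10 histone genes, which were left out of the search, genes with similar values were found by the distance over the 4 deposited measures, each divided by its standard deviation over genes. The nearest to the median histone gene was aco1, an aconitase gene, at a distance of 0.115, with levels of 1.10 in S phase and 0.52 in the asynchronous culture. It was followed by sir1 (0.436), knh3 (0.505), anc1 (0.535) and mam301 (0.551). Nearest to pht1 were pmd1 (0.235), pst1 (0.247), pub3 (0.249), sec16 (0.276) and bop1 (0.276). The likeness is over 4 values only.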

How the data were processed

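The authors summarised probe intensities of Affymetrix arrays to a signal per gene, scaled and averaged the 2 input arrays, divided IP by input and deposited the linear ratio. For each culture they hybridised 2 IP arrays and kept the one of better quality. The Pol II ratio rests on 2 published arrays and their own inputs. RNA levels in the deposited table are the mean of 2 published libraries, as the natural log of FPKM + 1. The base of the log follows from the values, since FPKM times length summed to 917640 with the natural base and to 177503 with base 2. The genome build of the gene signals is not given in the sources used here. Identifiers were matched to RefSeq (ASM294v3) for 4844 of 4888 genes, and coordinates and sequences are those of that assembly.

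Ratios were converted to log2 and centred on the median gene genome-wide, and 1.5-fold above the median was the call (Python 3.11.15, pandas 2.3.3, statsmodels 0.14.6 for lowess trends with a span of 0.3, Biopython 1.88 for alignments). Calling and trend removal were tested on simulated data, with 2-fold changes planted in 200 genes. Apart from these changes and added noise, the simulated columns had the same spread. The simulation therefore does not bear on the calls lost when the S-phase spread was scaled. Named genes were the 10 members, the 2 listed genes on each side of a locus, genes of the supply list past 1.5-fold with ams2 and cnp1, and the 5 genes nearest in value to the members and to pht1. Members, lists and tests were chosen with earlier results of these data known, and the head-to-tail repeat was searched for after the single element had been matched. The promoter between hta1 and htb1 is not reported here. With so few arrays, their number sets the limit of precision.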

Additional observations from a re-analysis of the deposited data

Results flagged for a closer look

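Of 52 named genes, 9 were above the median gene in one culture and below it in the other, and 0 of these were histone genes. This was not tested, and 23.3% of all genes meet the condition. Their log2 ratios of S phase over asynchronous were 0.47 at mce1, 0.47 at ubc15, 0.21 at alg9, 0.048 at lmb1, 0.27 at sim3 and 0.26 at swc5, which were positive in S phase. They were -0.51 at vps68, -0.30 at sfi1 and -0.19 at cdc2, which were negative in S phase.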

How the results depend on the processing

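Settings were changed one at a time. With ratios as deposited, not centred, the median log2 S-phase level of the histone genes was -1.25, the asynchronous one 0.16 and that of S phase over asynchronous -1.42, and no gene was called (0 in each count), since the columns were not scaled to each other. The S-phase levels were then -0.89 at hta1, -1.14 at htb1, -1.20 at hta2, -1.55 at hht1, -1.26 at hhf1, -1.50 at hht2, -1.15 at hhf2, -1.24 at hht3 and -1.32 at hhf3. S phase over asynchronous was -1.12 at hta1, -1.34 at hta2, -1.13 at hhf1, -1.32 at hhf2 and -1.40 at hhf3. With S-phase ratios scaled to the asynchronous spread, the S-phase median was 0.79, the difference 0.30 and 0 genes were called higher in S phase. With centring on the 25% of genes of lowest Pol II ratio, the S-phase median was 1.37 and the Pol II median 1.44, and 7 genes were called in the asynchronous culture, against 12.3% of all genes. That count was 2 without the GC trend, 8 at the lower threshold tried and 0 at 2-fold, which also left 0 genes higher in S phase. The Pol II level of pht1 was -0.30 relative to hta1 and hta2, against -0.71 relative to all canonical genes. The cause of these changes was not tested beyond what each setting changes by construction. The other 40 values of this kind moved by less than the array spread or within 1.5 times, among them all with the gene length trend removed. H4 exceeded H3 in each pair, and hta1 exceeded htb1, in S phase over asynchronous without the GC trend, without the length trend and with the spread scaled. The other 3 alternatives shift all genes alike and leave such differences as they are by construction. These differences were added after the data were seen, and those at hht1-hhf1 and hht3-hhf3 are ordinary in size between divergent partners. No paired analysis was possible because each culture has 1 IP array.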

Other observations

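Outside the histone genes, 11 promoters held the head-to-tail repeat of the histone box, and all 11 genes are in the table. These genes were found by the sequence and not by their values. They include hsp90, ssa1 and ssa2, which encode chaperones, tif51 and eft201, which encode translation factors, and spi1, the gene of the Ran GTPase. Their median Upf1 level was 0.71 in S phase and 0.57 in the asynchronous culture. The median ratio of S phase over asynchronous was 0.27, with 8 of 11 above 0. At least 1.5-fold higher in S phase was 1 of the 11, against 3.78% of all genes. The highest ratios of S phase over asynchronous were 0.61 at SPAC27E2.11c and 0.58 at hsp90, and the lowest was -0.60 at erg1. Among them hsp90 had 0.71 in S phase and 0.12 in the asynchronous culture, and ssa1 had -0.23 in S phase and 0.18 in the asynchronous culture. Pol II levels of the 11 genes ranged from -0.74 at ssa1 to 2.10 at SPAC27E2.11c, and only ssa1 and ppc89 (-0.056) were below the median gene. In the class of highest Pol II ratio, medians over all genes were 0.68 in S phase and 0.43 in the asynchronous culture. The median of S phase over asynchronous in that class was 0.21. The values of the 11 genes are thus to be read beside their Pol II levels. No list of this kind was tested.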
